A study of Mus musculus with 59 samples.

Results

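H19, a long noncoding RNA that is among the most abundant transcripts of mouse muscle, and 9 other imprinted genes of growth control were followed across 59 mouse RNA libraries. The 10 genes were H19, Igf2, Igf2r, Cdkn1c, Grb10, Plagl1, Peg3, Mest, Dlk1 and Meg3, of 24972 genes in each table, and all 10 had a row in each of the 4 tables. H19 was chosen by its normalized values in gastrocnemius, which had been seen to be lower with hydroxycitrate (HC), a competitive inhibitor of ATP citrate lyase (ACLY), on day 2 after muscle injury (CTX-HC 2 DPI against CTX 2 DPI). The other 9 genes were taken as imprinted growth genes. The values of H19 in those libraries are therefore given as a description, without a test.

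The gastrocnemius libraries came from wild-type male C57BL/6 mice that were 6 ± 1 months old and ate a standard diet (STD). Injured muscle had received cardiotoxin (CTX), a toxin that kills muscle fibres, in the left hind limb. The diet of the CTX-HC mice also held HC at 7.5 g/kg after the injection. Groups were CTX-HC 2 DPI and CTX-HC 30 DPI (DPI is days post injury), CTX 2 DPI and CTX 30 DPI on STD alone, and uninjured Control, with 3 libraries each. Soleus and liver came from male C57BL/6 mice of 41 weeks that had eaten STD with HC at 7.5 g/kg for 21 weeks or STD alone, 5 libraries per group. The paper's methods state that the mice of 41 weeks were killed after 16 h of fasting. AML12 cells, an immortalized mouse hepatocyte line, carried an siRNA against Acly (siAcly) or a control siRNA (siC). They were left untreated (Ut) or received 1 mM HC, 10 µM SB-204990 (SB) or 30 µM bempedoic acid (Bemp) for 16 h. Each group had 3 libraries. SB and Bemp are further ACLY inhibitors.

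An imprinted gene is transcribed mainly from the copy inherited from 1 parent. In the mouse, H19, Igf2r, Cdkn1c, Grb10 and Meg3 are mostly maternal transcripts, and Igf2, Dlk1, Peg3, Mest and Plagl1 are paternal. Paternal copies tend to promote growth, as the growth factor IGF2 does, while maternal ones tend to restrain it, as the receptor IGF2R does by taking IGF2 up for degradation. H19 and Igf2 share enhancers and a methylated control region that lets only 1 of them be transcribed from each copy. In muscle, H19 and Igf2 are known for their high level in the embryo, their role in myoblast differentiation and, for Igf2, its return during regeneration. The libraries do not separate the parental copies, so each value sums both.

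The loci are given in the mouse build GRCm38 (mm10). H19 lay at chr7:142575529-142578143 on the minus strand and is annotated as a lincRNA with 2.46 kb of exon, and Igf2 lay 72.6 kb away at chr7:142650766-142666816 on the same strand. Cdkn1c lay at chr7:143458339-143461050, 791.5 kb from Igf2, and Peg3 far from them at chr7:6703892-6730431, both on the minus strand. Dlk1 (chr12:109452823-109463336) and Meg3 (chr12:109541001-109571726), both on the plus strand, are another imprinted pair, 77.7 kb apart. The remaining genes each stood alone, Mest at chr6:30723547-30748465 (plus), Plagl1 at chr10:13060504-13131694 (plus), Igf2r at chr17:12682406-12769664 (minus) and Grb10 at chr11:11930508-12038683 (minus). Igf2os overlaps Igf2 by 7124 bases and Airn overlaps Igf2r by 28354 bases, both on the opposite strand. H19 is also the host of a microRNA, miR-675, at chr7:142577064-142577147. Its 2 mature products are shown because they are the sequence H19 is processed into, and they are given 5′ to 3′ from RefSeq (GRCm38.p6), with the seed (bases 2 to 8) in capitals. The 2 seeds differ, and the minus-strand positions are chr7:142577078-142577099 for the 3p product and chr7:142577112-142577133 for the 5p product.
mmu-miR-675-3p: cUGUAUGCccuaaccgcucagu
mmu-miR-675-5p: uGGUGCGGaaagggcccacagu

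The row of Mir675 was 0 in all 15 gastrocnemius libraries, which were made from mRNA and do not measure mature microRNAs. Promoter windows, running from 250 bases before to 50 bases after a start site, were found in RefSeq (GRCm38.p6) for 8 of the 10 genes, in 15 entries. H19 and Cdkn1c had no entry. Igf2 and Peg3 are shown because their values moved together between gastrocnemius libraries. The E-box CANNTG, the motif that myogenic factors bind, reads the same on both strands, and each match is in capitals. It occurred in 72.3% of all 32851 promoter windows. Igf2 had 4 windows, of which 2 are shown. The first shown, chr7:142657447-142657746 on the minus strand, held no match and 7 CpG. The second shown, chr7:142658755-142659054 on the minus strand, held 1 match (CAAGTG) and 24 CpG. The other 2, both on the minus strand, held 0 matches and 14 CpG at chr7:142661222-142661521 and 2 matches and 2 CpG at chr7:142666767-142667066. The Peg3 window, chr7:6730370-6730669 on the minus strand, held no match and 13 CpG, beside a median of 7 CpG over all windows.
Igf2 first window: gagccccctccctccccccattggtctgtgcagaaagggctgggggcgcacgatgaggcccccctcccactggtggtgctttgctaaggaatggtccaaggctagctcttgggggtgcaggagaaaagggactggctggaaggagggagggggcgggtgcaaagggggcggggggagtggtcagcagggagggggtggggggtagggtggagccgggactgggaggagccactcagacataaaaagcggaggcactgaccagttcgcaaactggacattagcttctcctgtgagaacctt
Igf2 second window: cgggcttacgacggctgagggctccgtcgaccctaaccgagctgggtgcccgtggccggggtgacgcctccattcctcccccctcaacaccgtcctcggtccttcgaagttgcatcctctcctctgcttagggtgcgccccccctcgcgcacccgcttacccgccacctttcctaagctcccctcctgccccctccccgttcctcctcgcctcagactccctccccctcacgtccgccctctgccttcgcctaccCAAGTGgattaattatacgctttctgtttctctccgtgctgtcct
Peg3: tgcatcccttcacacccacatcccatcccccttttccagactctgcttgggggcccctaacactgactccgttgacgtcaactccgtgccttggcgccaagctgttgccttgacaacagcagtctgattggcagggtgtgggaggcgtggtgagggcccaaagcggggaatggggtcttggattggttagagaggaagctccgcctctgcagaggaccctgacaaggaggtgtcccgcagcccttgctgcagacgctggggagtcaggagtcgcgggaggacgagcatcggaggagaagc

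The values are read counts per gene that the authors had scaled between libraries, called normalized values here. Estimated depth was 16.1 to 34.9 M reads in gastrocnemius, 8.97 to 11.3 M in soleus, 7.66 to 13 M in liver and 7.42 to 16.2 M in AML12. In gastrocnemius, all 8 mature fibre markers were measured. The summed leukocyte markers spread several-fold within every group, with replicate 3 lowest in CTX-HC 2 DPI and CTX 2 DPI, replicate 2 lowest in Control, and replicate 3 of CTX-HC 30 DPI (6833, against 754 and 797) and replicate 1 of CTX 30 DPI (5328, against 568 and 609) highest. Of the 10 genes, 9 passed the filter on low values (at least 10 in at least 3 libraries) in gastrocnemius, 9 in soleus, 5 in liver and 4 in AML12. Dlk1 did not pass in any of the 4.

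H19 stood above 99.2% of the genes with a value in gastrocnemius. Per kilobase of exon, the normalized level in Control was 5050 for H19, 623 for Igf2r, 431 for Igf2, 327 for Cdkn1c, 148 for Grb10, 85.7 for Peg3, 24.8 for Mest, 14.3 for Meg3, 5.86 for Plagl1 and 1.15 for Dlk1. Igf2, with an SD of 436 over 3 libraries, did not differ beyond its spread from its neighbours Igf2r and Cdkn1c. The order thus placed the noncoding partner of Igf2 far above Igf2 itself.

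H19 was low in every CTX-HC 2 DPI library and high in every CTX 2 DPI library. Its normalized values were 5561, 6632 and 6594 in CTX-HC 2 DPI, against 18363, 22349 and 20370.1 in CTX 2 DPI. Control had 9354, 16167 and 11754, between these groups and overlapping neither. CTX-HC 2 DPI averaged 6262 ± 607 and CTX 2 DPI 20361 ± 1993 (SD, n = 3 each), so that the HC mean was lower by a ratio of 3.25 (log2 fold change -1.70). Against Control, whose mean was 12425 ± 3456, it was lower by a ratio of 1.98 (-0.96), whereas injury without HC stood higher by 1.64 times (+0.74). The separation of H19 between CTX-HC 2 DPI and CTX 2 DPI is what chose it, so it is not counted as a result. The other genes of the set that were tested all overlapped between these 2 groups. Of all 14033 genes tested, 7.35% were lower in CTX-HC 2 DPI without overlap. In bulk tissue, fewer cells of a type and less RNA per cell cannot be told apart.

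By day 30 the H19 means stood in the other order, but the groups overlapped. H19 had 20895, 10857 and 24055 in CTX-HC 30 DPI, against 12770.5, 14873 and 9730.0 in CTX 30 DPI. The ranges overlapped, through CTX-HC 30 DPI replicate 2. The log2 fold change was 0.52 ± 0.29 (SE) with an adjusted p of 1 (limma, Benjamini-Hochberg over all genes). Against CTX-HC 2 DPI, CTX-HC 30 DPI was higher by 2.97 times in its mean (log2 fold change 1.496), and without HC, CTX 30 DPI was lower than CTX 2 DPI by 0.73 on the log2 scale (-0.73). All 3 CTX-HC 30 DPI libraries lay above all 3 of CTX-HC 2 DPI. Because the day 2 libraries chose H19, its differences from day 2 are descriptions, without a test.

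**Figure D1:**
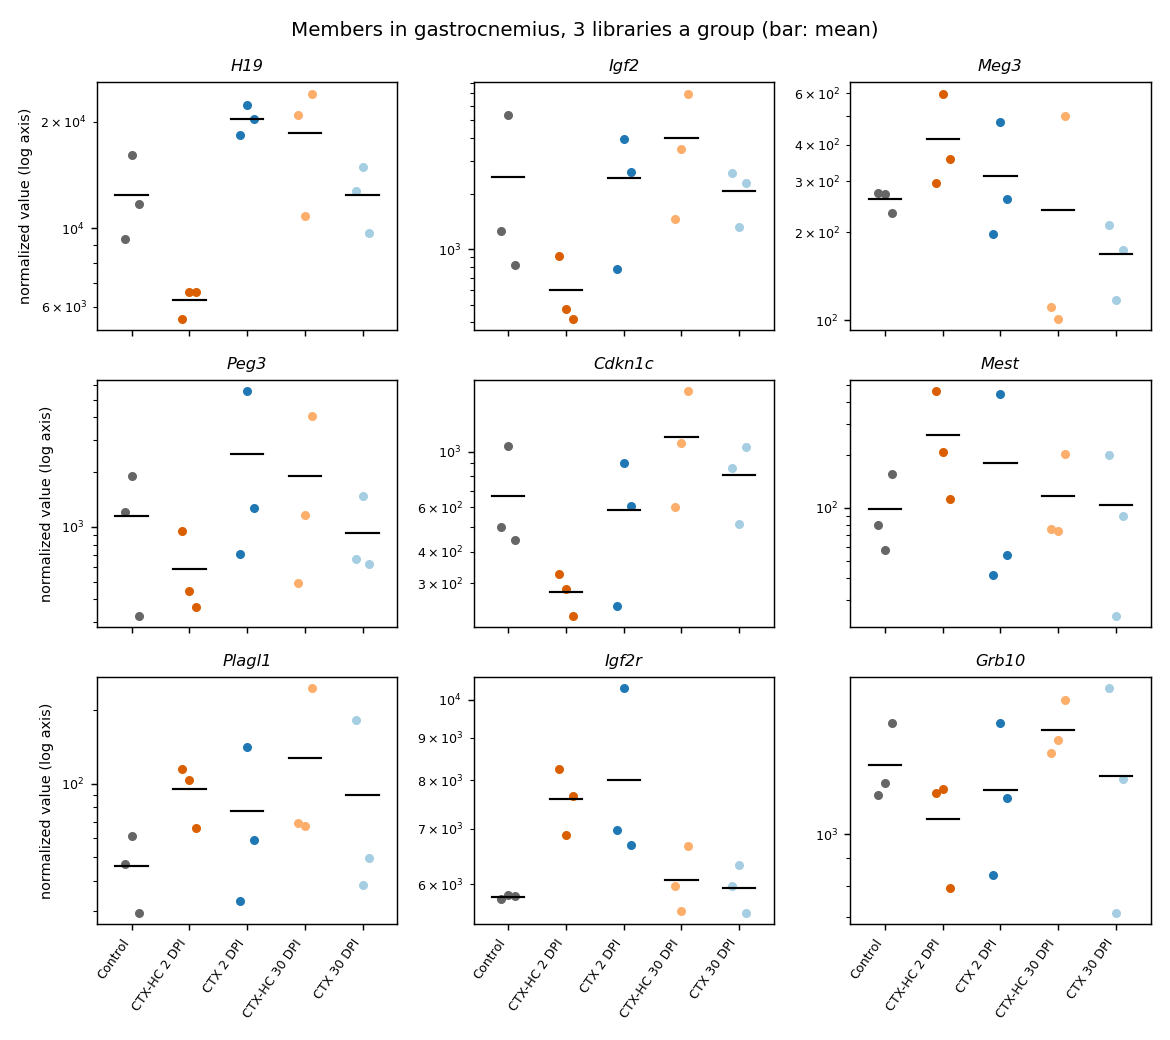
Normalized values (log axes) of 9 of the genes in the 15 gastrocnemius libraries, 1 point per library, with a bar at the mean of each group of 3. H19 in CTX-HC 2 DPI (5561 to 6632) lies below every other library, while most other genes overlap between groups.

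Igf2, which encodes insulin-like growth factor 2, had its 2 lowest values of all 15 libraries in CTX-HC 2 DPI. The values were 915, 474 and 419 in CTX-HC 2 DPI, against 780, 3945 and 2604 in CTX 2 DPI. Control had 1249, 5338 and 816. Replicate 1 of CTX 2 DPI lay inside the HC range and Control replicate 3 just below its highest value, so CTX-HC 2 DPI overlapped both. The log2 fold change was -1.82 against CTX 2 DPI, as a description, and -1.63 ± 0.75 (SE) against Control, with an adjusted p of 0.134 (limma). At day 30 Igf2 had 1461, 3510 and 6981 in CTX-HC 30 DPI and 2590.3, 1312 and 2293 in CTX 30 DPI. All 3 CTX-HC 30 DPI libraries were above all 3 of CTX-HC 2 DPI, by 2.54 ± 0.75 (SE) on the log2 scale, a 5.81-fold rise with an adjusted p of 0.0493 (limma). The call was lost in 10 of 13 alternative analyses, whose adjusted p ran from 0.0417 to 0.146, and it was lost when any 1 of the 6 libraries compared was left out (0.0648 to 0.146). Against CTX 30 DPI the log2 fold change was 0.73 (adjusted p 1).

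Igf2r, the receptor that clears IGF2, had the smallest standard error of the 9 genes. It had 8260.5, 6873 and 7668 in CTX-HC 2 DPI, 6981, 10325 and 6693 in CTX 2 DPI, and 5761, 5829 and 5810 in Control. Both day 2 groups lay above Control without overlap, by 0.39 (log2) for CTX-HC 2 DPI (adjusted p 0.125) and 0.44 for CTX 2 DPI (adjusted p 0.307), and neither passed the threshold (limma). At day 30 its values were 5571 to 6663 in CTX-HC 30 DPI and 5539 to 6320.5 in CTX 30 DPI, both overlapping Control. Airn, the antisense transcript of this locus, had 170.7, 132 and 277 in CTX-HC 2 DPI and 124, 178 and 155 in Control.

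Cdkn1c encodes p57, an inhibitor of cyclin-dependent kinases that holds cells out of the cell cycle. It had 325, 285 and 223 in CTX-HC 2 DPI, against 245, 902 and 610.5 in CTX 2 DPI. Control had 499.7, 1055 and 446, all above the HC libraries. The log2 fold change was -0.90 against CTX 2 DPI, as a description, and -1.17 ± 0.50 (SE) against Control, with an adjusted p of 0.115 (limma). In the fit of those 2 groups alone the adjusted p against Control was 0.0373. That was the only 1 of 13 alternative analyses to pass the threshold, and the adjusted p ran up to 0.371. At day 30 Cdkn1c had 603, 1078 and 1742 in CTX-HC 30 DPI, all above CTX-HC 2 DPI. It rose there by 1.92 ± 0.50 (SE) on the log2 scale, or 3.79-fold, with an adjusted p of 0.034 (limma). CTX 30 DPI had 862, 515 and 1045, and the log2 fold change of CTX-HC 30 DPI against it was 0.43 (adjusted p 1). The rise in CTX-HC missed the threshold in 6 of 13 alternative analyses, among them those that left out any 1 of the 6 libraries other than CTX-HC 30 DPI replicate 3 (0.0526 to 0.111).

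Grb10 and Plagl1 are a signalling adaptor that dampens insulin and IGF receptors and a zinc finger transcription factor, Plagl1 being known to regulate other imprinted genes in the mouse. Grb10 had 1196, 1214 and 792 in CTX-HC 2 DPI, 837, 1617 and 1168 in CTX 2 DPI, and 1185, 1248 and 1613 in Control, so that all 3 groups overlapped. Plagl1 had 114, 103.8 and 65.7 in CTX-HC 2 DPI, 33.0, 141 and 58.6 in CTX 2 DPI, and 47.0, 61.03 and 29.5 in Control. Its HC libraries lay above Control without overlap, by 1.05 (log2), with an adjusted p of 0.265 (limma). Plagl1 was also above Control without overlap in CTX-HC 30 DPI, where 69.2, 67.4 and 246 gave a log2 fold change of 1.24 and an adjusted p of 1.

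Peg3 encodes a large zinc finger protein that marks muscle stem cells among others. It had 956, 443 and 363 in CTX-HC 2 DPI, against 711, 5588 and 1278 in CTX 2 DPI. Control had 1203, 1899 and 325. A single library, CTX 2 DPI replicate 2, held the highest Peg3 of all. The log2 fold change of CTX-HC 2 DPI was -1.68 against CTX 2 DPI, as a description, and -0.76 ± 0.87 (SE) against Control (adjusted p 0.554, limma). At day 30 Peg3 had 490.02, 1163 and 4047 in CTX-HC 30 DPI and 671, 1485 and 623 in CTX 30 DPI. CTX-HC 30 DPI stood 1.30 above CTX-HC 2 DPI on the log2 scale, with an adjusted p of 0.33.

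Mest, an endoplasmic reticulum protein linked to fat cell growth, and the noncoding RNA Meg3 had their highest value in CTX-HC 2 DPI. Mest had 462, 208 and 112 in CTX-HC 2 DPI, 41.3, 445 and 53.6 in CTX 2 DPI, and 79.99, 57.3 and 156 in Control. It was thus higher than Control by 1.29 (log2) with overlap and an adjusted p of 0.318 (limma), and higher than CTX 2 DPI by 1.13 as a description. Meg3 had 295, 599 and 358 in CTX-HC 2 DPI, 197, 478 and 259.6 in CTX 2 DPI, and 273, 272 and 233 in Control. Its HC libraries lay above Control without overlap, by 0.62 (adjusted p 0.411). CTX-HC 30 DPI had 111, 101 and 502, so its replicate 3, the library with high leukocyte markers, stood far above the other 2. Against CTX-HC 2 DPI, Meg3 was lower by 1.16 (-1.16, adjusted p 0.158), and without that replicate it fell by 1.90 with an adjusted p of 0.00361. Mest was lower there by 1.08 (-1.08, adjusted p 0.444). CTX 30 DPI had 213, 117 and 174 for Meg3, all below Control (log2 fold change -0.66, adjusted p 1).

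Dlk1, a membrane ligand related to Notch ligands that neighbours Meg3, was barely detected. Its normalized values ran from 0 to 9.04 in CTX-HC 2 DPI, 1.70 to 8.59 in CTX 2 DPI, 1.92 to 13.7 in CTX-HC 30 DPI, 1.97 to 25.2 in CTX 30 DPI and 2.86 to 8.89 in Control. These levels were too low for a difference to be read.

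Counted over the 8 genes tested other than H19, 2 passed an adjusted p of 0.05 between CTX-HC 30 DPI and CTX-HC 2 DPI (limma), Igf2 and Cdkn1c, both higher at day 30, beside 9.74% of all genes in either direction. At an unadjusted p under 0.05 there were 3 of 8 (also Meg3, lower), beside 30.4% of all genes. H19 is left out of these counts because its day 2 libraries chose it. The 2 calls did not hold when libraries were left out. The count was 0 of 8 without CTX-HC 2 DPI replicate 1, 2 or 3 or CTX-HC 30 DPI replicate 1 or 2, and 2 without CTX-HC 30 DPI replicate 3, with Cdkn1c and Meg3 (lower) called and Igf2 not. Between CTX 30 DPI and CTX 2 DPI, limma called 0 of 8, beside 0.257% of all genes, with 1 (Igf2r) at an unadjusted p under 0.05, beside 21.1% of all genes. Between CTX-HC 2 DPI and Control it called 0 of 8, beside 9.93% of all genes, with 3 (Igf2, Cdkn1c and Igf2r) at an unadjusted p under 0.05, beside 35.9% of all genes. Between CTX 2 DPI and Control it called 0 of 8, beside 0% of all genes, with 1 (Igf2r) at an unadjusted p under 0.05, beside 14.9% of all genes. H19, as a description, and Igf2r were higher in CTX 2 DPI than in Control without overlap, where 13.5% of all genes were. The share of all genes that CTX-HC 2 DPI and Control separated without overlap was not counted. The separations of Igf2r, Plagl1, Meg3 and Cdkn1c there are therefore descriptions and not traits of these genes. The same holds for the separations of the day 30 groups from Control or from CTX-HC 2 DPI. The comparisons with Control share its 3 libraries. Likewise, CTX-HC 2 DPI stands on opposite sides in the comparisons with Control and with CTX-HC 30 DPI, so these are not independent.

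For the remaining gastrocnemius comparisons, limma called 0 of 9 genes between CTX-HC 30 DPI and CTX 30 DPI, between CTX-HC 30 DPI and Control and between CTX 30 DPI and Control, beside 0% of all genes in each, and none of the 9 had an unadjusted p under 0.05. Against Control, the log2 fold changes of CTX-HC 30 DPI were 0.54 for H19, 0.91 for Igf2 and 0.76 for Cdkn1c (adjusted p 1 each).

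**Figure D2:**
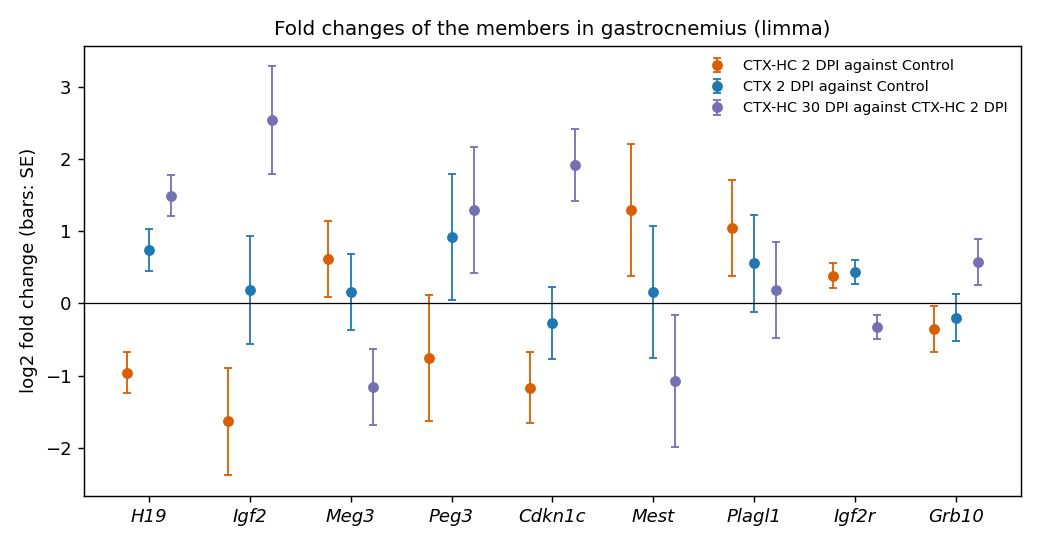
Log2 fold change (points) and standard error (bars) of 9 genes in gastrocnemius for CTX-HC 2 DPI against Control, CTX 2 DPI against Control and CTX-HC 30 DPI against CTX-HC 2 DPI. H19, Igf2 and Cdkn1c lie below 0 in the first comparison (-0.96, -1.63 and -1.17) and above 0 in the last (1.496, 2.54 and 1.92). Both comparisons use the same CTX-HC 2 DPI libraries, on opposite sides, so the opposite signs are not independent. Those libraries chose H19, whose points are a description.

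Igf2 and Cdkn1c went together from library to library. Across the 15 gastrocnemius libraries, Pearson's r of their log2 values was 0.948 (Spearman's rho 0.954), 0.929 without the 2 libraries farthest from the median, and 0.953 after each group's mean was taken out. Peg3 also followed Igf2 (r = 0.765, and 0.785 within groups). H19 followed Igf2 less closely, with r = 0.645 over all libraries and 0.258 within groups. Within groups 35 of the 36 pairs of genes had a positive r, with a median of 0.543. These are descriptions of 15 libraries that share depth, scaling and tissue make-up. The genes whose pattern was most like that of Igf2, chosen after their values were seen, were Cdkn1c, Myh8 (r = 0.933), Shisal1 (0.927), Myh3 (0.91) and Pcbd1 (0.889). Myh3 and Myh8 encode the embryonic and perinatal myosin heavy chains of newly formed fibres.

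The summed level of 4 regenerating fibre markers (Myh3, Myh8, Actc1 and Tnnt2, all measured) was 974, 1055 and 406 in CTX-HC 2 DPI, 1651, 5862 and 3329 in CTX 2 DPI, and 3572, 6977 and 3318 in Control. All 3 CTX-HC 2 DPI libraries lay below the other 12. Uninjured Control overlapped CTX 2 DPI, so the name of the list does not mean that its sum followed regeneration here. The sum was 6270, 9485 and 14041 in CTX-HC 30 DPI and 12209, 2161 and 19355 in CTX 30 DPI. Its r over the 15 libraries was 0.919 with Cdkn1c, 0.83 with Igf2 and 0.534 with H19, and within groups 0.826, 0.709 and -0.0639 in the same order. The sum holds Myh3 and Myh8, which were named above as genes most like Igf2. Its r with Igf2 is therefore not a separate result. The sum of 8 mature fibre markers was also lowest in CTX-HC 2 DPI, at 904288 to 1403890, against 1651170 to 2465860 in CTX 2 DPI and 2364880 to 3209180 in Control. The r of this mature fibre sum over the 15 libraries was 0.398 with H19, 0.397 with Igf2 and 0.454 with Cdkn1c. Within groups it was -0.327, -0.236 and -0.246 in the same order. The part of mature fibres in the values of H19, Igf2 and Cdkn1c was not tested.

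Meg3, Mest, Plagl1 and Igf2r had a higher mean in CTX-HC 2 DPI than in Control, and none of them passed the test. The sum over 9 leukocyte markers (8 measured) was 24969, 18041 and 5765 in CTX-HC 2 DPI, 10173, 6866 and 1881 in CTX 2 DPI, and 3637, 793 and 2960 in Control. Its r over the 15 libraries was 0.722 with Meg3, 0.67 with Mest, 0.627 with Igf2r and 0.434 with Plagl1. Within groups r was 0.544, 0.613, 0.306 and 0.597 in the same order. The sum of 7 fibro-adipogenic and fibroblast markers ranged from 22329 to 84587 in CTX-HC 2 DPI and 22334 to 48567 in CTX 2 DPI. In Control it was 9869 to 14388. Its r was 0.73 for Plagl1, 0.681 for Mest, 0.647 for Meg3 and 0.569 for Igf2r. Within groups r was 0.773, 0.684, 0.72 and 0.274 in the same order. With the mature fibre markers r was -0.727 for Meg3, -0.717 for Mest, -0.707 for Igf2r and -0.516 for Plagl1. Satellite cell and myoblast markers gave 0.705 for Igf2r, 0.449 for Meg3, 0.192 for Mest and -0.0243 for Plagl1. The part of these cells in the values was not tested.

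**Figure D3:**
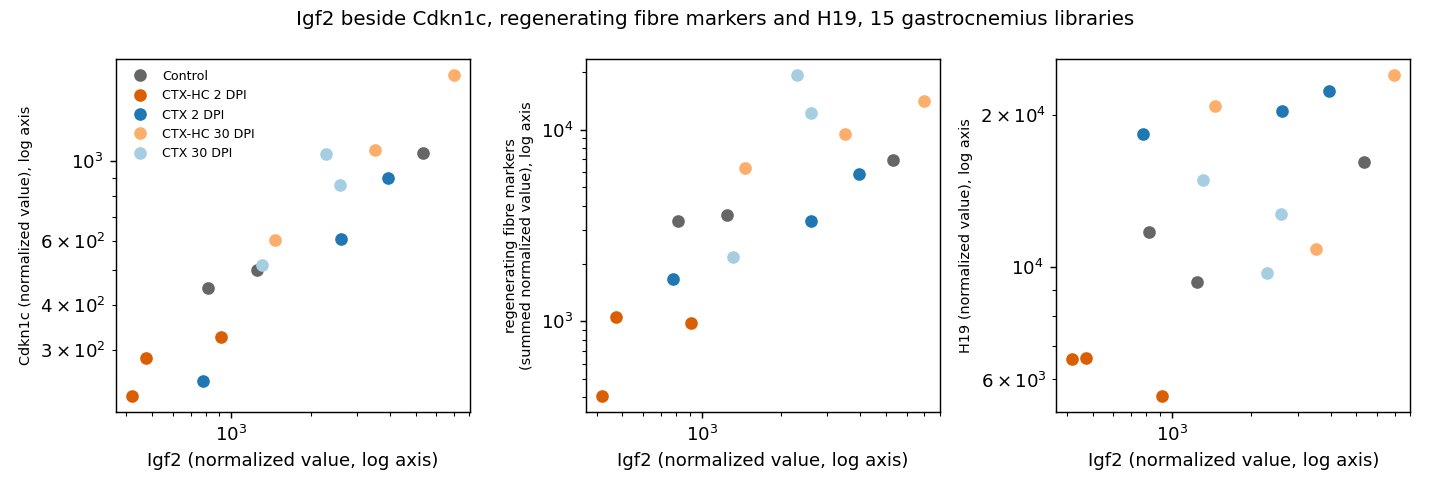
Igf2 (normalized value, log axis) beside Cdkn1c, the summed regenerating fibre markers and H19 (log axes) in the 15 gastrocnemius libraries, 1 point per library, coloured by group. Cdkn1c follows Igf2 closely (r = 0.948), the markers somewhat less (0.83) and H19 least (0.645).

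The 5 genes whose pattern over the 15 libraries was most like that of H19 were Lrp4 (r = 0.834, rho = 0.789), a receptor of the neuromuscular junction, Ntng2 (0.822 and 0.854), Mtcl1 (0.815 and 0.789), Apeh (0.786 and 0.775) and Zbtb26 (0.777 and 0.714). None was an imprinted gene of the set. They were picked from all genes tested by their values, in libraries that include those that chose H19, so they are a description. Nctc1, a noncoding transcript 16.9 kb from H19 that was looked up after the values were seen, had 630.5, 1142 and 1255 in CTX-HC 2 DPI, 1469, 2346 and 2242 in CTX 2 DPI, and 3059.7, 2093 and 1933 in Control. All 3 CTX-HC 2 DPI libraries were below those of CTX 2 DPI and Control. Because these values led to its choice, Nctc1 is given as a description, without a test. Its log2 fold change was -1.26 ± 0.35 (SE) in CTX-HC 2 DPI against Control. Between CTX-HC 30 DPI and CTX-HC 2 DPI it was 1.16.

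Of 17 other genes of the IGF pathway, 15 were tested in gastrocnemius. Between CTX-HC 2 DPI and Control 1 rose and 1 fell, beside 9.93% of all genes called, and the median log2 fold change was -0.43 beside 0.0169 over all genes. Igf2bp2, an RNA-binding protein that attaches to Igf2 mRNA, rose by 1.99 (adjusted p 0.0228), with 366, 252 and 547 in CTX-HC 2 DPI, against 70.4, 59.6 and 187 in Control. Irs2, a docking protein of the insulin and IGF receptors, fell by 1.24 (adjusted p 0.0446), with 1016, 999 and 1197 in CTX-HC 2 DPI, against 2749.5, 2358 and 2458 in Control. Igf2bp2 was high in CTX 2 DPI as well (376, 306 and 246). Between CTX-HC 30 DPI and CTX-HC 2 DPI, Igf2bp2 fell by 3.67 (adjusted p 0.00149), opposite in sign to Igf2, and it was the only IGF pathway gene called there, 1 of 15, beside 9.74% of all genes. Without HC, between CTX 30 DPI and CTX 2 DPI, it fell by 2.98 (adjusted p 0.0187), a call that was lost in 5 of 13 alternative analyses, 4 of them without 1 library (CTX 2 DPI replicate 1 or 2, or CTX 30 DPI replicate 1 or 3, 0.0708 to 0.138). Igf2bp2 kept its call between CTX-HC 30 DPI and CTX-HC 2 DPI in 13 of 13 alternative analyses, and its call between CTX-HC 2 DPI and Control was lost without Control replicate 1 (0.0814), Control replicate 2 (0.126) or CTX-HC 2 DPI replicate 1 (0.105). The call of Irs2 was lost without any 1 of the 6 libraries other than CTX-HC 2 DPI replicate 3 (0.084 to 0.166).

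Of 46 further imprinted genes, 34 were tested. Between CTX-HC 2 DPI and Control 1 rose and 2 fell, beside 9.93% of all genes called, with a median of -0.33. The gene that rose was Dio3, the deiodinase that inactivates thyroid hormone, at the far end of the Dlk1 and Meg3 domain. It had 27.4, 26.6 and 8.55 in CTX-HC 2 DPI, against 0.937, 0 and 3.72 in Control (log2 fold change 3.23, adjusted p 0.0378), and CTX 2 DPI had 21.8, 27.1 and 5.04. The noncoding RNA Peg13 fell by 0.93 (adjusted p 0.0428) and the splicing factor gene Zrsr1 by 0.91 (adjusted p 0.0349). Between CTX-HC 30 DPI and CTX-HC 2 DPI 4 rose and none fell, beside 9.74% of all genes called, with a median of 0.32. These were Snrpn (1.63, adjusted p 0.0459) and Snurf (1.19, 0.0477), which share a transcript, Peg13 (1.07, 0.0278) and Commd1 (0.85, 0.0407). Each of these calls was lost in 4 to 7 of its alternative analyses. No gene of either list was called in the remaining comparisons of gastrocnemius with uninjured Control or between the day 30 groups.

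In soleus, a slow postural muscle that had not been injured, H19 stood above 99.6% of the genes with a value. Its normalized value had a lowest, median and highest of 15066, 15756 and 23290 in Soleus HC, against 15481, 15824 and 21088 in Soleus STD. The means of 17208 ± 3435 and 16807 ± 2408 (SD, n = 5 each) overlapped almost fully, and 1 high library in each group set the range. The log2 fold change of H19 was within 1 SE of 0 (adjusted p 0.999, limma; exact permutation p 0.762). Igf2 had 387, 258, 267, 275 and 347 in Soleus HC, and 249, 281, 241, 271 and 287 in Soleus STD. Limma called 0 of the 9 genes tested, beside 0% of all 12067 genes, with 1 at an unadjusted p under 0.05, beside 5.05% of all genes.

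That gene was Mest, with 24.8, 26.3, 23.8, 53.4 and 74.7 in Soleus HC, against 13.5, 19.9, 22.4, 24.4 and 28.4 in Soleus STD. The ranges overlapped, and the log2 fold change was 0.75 ± 0.33 (SE), with an adjusted p of 0.972 (limma) and an exact two-sided permutation p of 0.0873. Dlk1, which was not tested by limma, reached at most 2.58 and had an exact permutation p of 0.0317, which became 0.436 after adjustment over 20 such tests. Meg3 had 193 in Soleus HC replicate 5, against 35.8 to 61.3 in the other 4 of its group. The same library held the group's highest H19 (23290), Mest (74.7) and Peg3 (257). It also had the highest sum of fibro-adipogenic markers (9597, against 3319 to 5855 in the rest of Soleus HC) and of regenerating fibre markers (1998, against 793 to 1067), and their part in its values was not tested.

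In liver most of the set was low, and most of these genes are known to be shut down there after birth. H19 had 3.06, 0, 3.51, 2.06 and 1.42 in Liver HC, against 0, 2.08, 1.05, 0 and 68.3 in Liver STD. The 68.3 of Liver STD replicate 5 stood alone. That library also had 778 in the sum of 8 mature fibre markers and 254 in that of 4 regenerating fibre markers, where the other 9 had at most 1.19 and 4.99. Whether muscle RNA set its H19 was not tested. Limma called 0 of the 5 genes tested (Peg3, Cdkn1c, Mest, Igf2r and Grb10), beside 0% of all 11497 genes, with 1 at an unadjusted p under 0.05, beside 4.24% of all genes.

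Peg3 was that gene, with 67.0, 32.9, 34.0, 44.2 and 75.3 in Liver HC, against 61.04, 126, 47.5, 109 and 103.9 in Liver STD. The groups overlapped, with a log2 fold change of -0.80 ± 0.30 (SE), an adjusted p of 0.995 (limma) and an exact two-sided permutation p of 0.0714. Cdkn1c had 13.96, 19.9, 21.8, 19.5 and 14.5 in Liver HC, against 13.3, 11.7, 17.4, 13.6 and 12.996 in Liver STD (log2 fold change 0.35, exact permutation p 0.0556). After adjustment over the 20 tests of the set in both tissues, both were at 0.436. Igf2r, the most abundant, had 419 to 597 in Liver HC and 439.9 to 575 in Liver STD. Dlk1 was above 0 in 1 library of each group. In the lists of IGF pathway and further imprinted genes, none of the 14 and 20 tested in liver or of the 13 and 26 tested in soleus passed. The 2 most abundant in liver were Igfbp4 (means of 17044 in Liver HC and 17121 in Liver STD) and Igf1 (4079 and 4529), and in soleus Gnas averaged 13516 in Soleus HC and 13742 in Soleus STD.

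**Figure D4:**
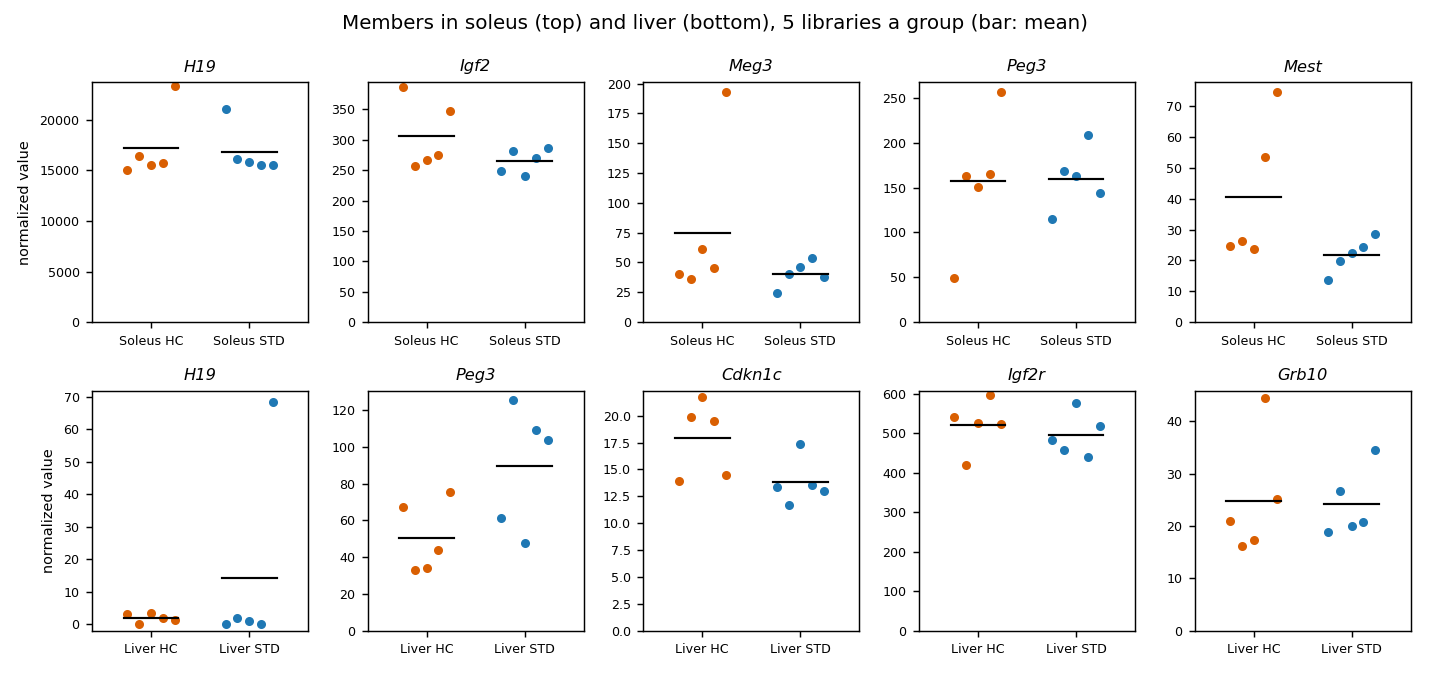
Normalized values of H19, Igf2, Meg3, Peg3 and Mest in soleus (top) and H19, Peg3, Cdkn1c, Igf2r and Grb10 in liver (bottom), 1 point per library with HC left and STD right, and a bar at the mean of 5. The HC and STD points overlap in every panel, and H19 in liver is near 0 except for 1 STD library at 68.3.

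AML12 cells kept Peg3 and Igf2r at high levels, while Dlk1 and Meg3 were 0 in all 24 libraries. H19 passed 5 normalized units in 8 of the 24 libraries (8.73 to 35.6) and was at most 1.71 in the others, with 0 in 14. Of those 8 libraries, 6 were replicate 1 and 2 were replicate 2 of their group, and H19 was 0 in all 8 replicate 3 libraries. Acly was 215 to 599 in the siAcly libraries and 2576 to 3860 in the siC libraries, except for 404 in the library labelled siC Bemp replicate 1. Cyp1a1, which was 678 to 1255 in the other Bemp libraries and 142 to 441 in the other Ut libraries, was 236 in that library and 917 in the library labelled siC Ut replicate 3, so both went against their labels.

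Peg3 had the largest fold change with the Acly siRNA of the 4 genes tested. It had 2262, 1236 and 420.3 in siAcly Ut, against 3796, 2748 and 3236 in siC Ut. The 3236 was in siC Ut replicate 3, which went against its label. The library labelled siC Bemp replicate 1, with Acly in the siAcly range, had 3831. As labelled, the groups did not overlap, and the log2 fold change was -1.61 ± 0.53 (SE), with an unadjusted p of 0.00652 and an adjusted p of 0.138 (limma). In 14 alternative analyses, among them that without both doubted libraries, the log2 fold change stayed below 0 (adjusted p 0.0533 to 0.495, limma). Without siAcly Ut replicate 3 it was -0.95 (adjusted p 0.495). Igf2r was lower by 0.33 (-0.33, adjusted p 0.448), with 1242, 1477 and 1071 in siAcly Ut and 1233, 1966 and 1626 in siC Ut. Limma called 0 of the 4 genes tested (H19, Peg3, Cdkn1c and Igf2r), beside 0.187% of all 12296 genes, with 1 at an unadjusted p under 0.05, as were 2332 of all genes.

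With SB, Peg3 in siAcly cells overlapped its values in siC cells, with 2780, 3867 and 3884 in siAcly SB, above every siAcly Ut library. The log2 fold change was 1.72 ± 0.53 (SE), with an unadjusted p of 0.0042 and an adjusted p of 0.331 (limma), and without siAcly Ut replicate 3 it was 1.05 (adjusted p 0.823). In siC cells Peg3 had 2299, 3173 and 3668 with SB, overlapping siC Ut. The difference between the 2 responses to SB, siAcly minus siC, was 1.83 ± 0.75 (SE) on the log2 scale, with an adjusted p of 0.56 (limma), so it did not hold after adjustment. HC gave 1035, 1512 and 2946 in siAcly HC, and Bemp 790.5, 2360 and 4179 in siAcly Bemp, both overlapping siAcly Ut. In every siAcly group, Peg3 was highest in the library of the number series 81 to 87. In siC cells this held with SB only, and siC Ut had no library of that series. With the series as a covariate, the Peg3 contrasts of siAcly Ut with siC Ut and with siAcly SB kept their sign and missed the threshold (limma). Limma called 0 of 4 genes for SB in siAcly cells (1 at an unadjusted p under 0.05, beside 13.4% of all genes), and 0 of 4 for HC and Bemp in siAcly cells and for HC, SB and Bemp in siC cells (none at an unadjusted p under 0.05), beside 0% of all genes in each of the 6. No gene of the IGF pathway (12 tested) or of the further imprinted genes (23 tested) passed in AML12.

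**Figure D5:**
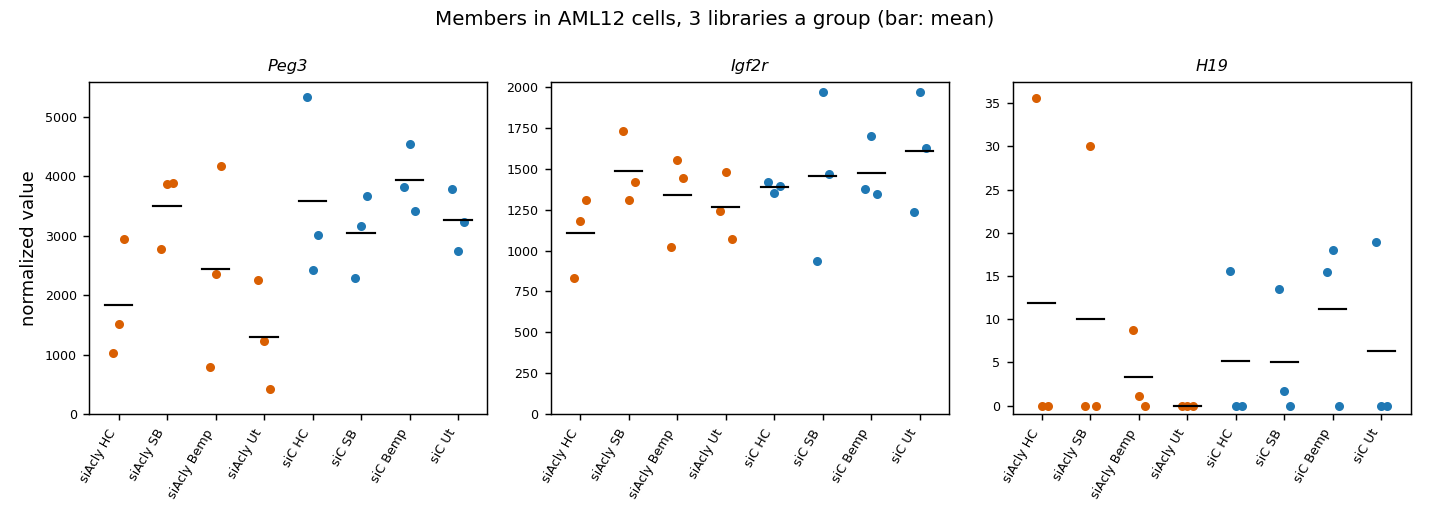
Normalized values of Peg3, Igf2r and H19 in AML12 cells, 1 point per library and a bar at the mean of 3, with siAcly groups left of siC groups and Ut last in each. Peg3 is lowest in siAcly Ut (420.3 to 2262) and lies at 2780 to 3884 in siAcly SB.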

How the data were processed

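RNA sequencing values of mouse gastrocnemius, soleus, liver and AML12 cells were analysed. The deposited tables hold gene counts that the authors had divided by DESeq2 size factors (median of ratios, build mm10), a signal with no whole reads to recover, so no count model was used. Reads had been trimmed and aligned with a STAR-based Illumina application before counting, and the gene annotation used is not given in the sources used here. Gastrocnemius and AML12 libraries were stranded mRNA preparations, and soleus and liver libraries are described as rRNA-depleted and directional, so levels are not compared across tables by test. The paper's methods name only a stranded mRNA kit for RNA sequencing, so the sources differ on soleus and liver.

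Values were tested as log2(value + 1) with limma 3.58.1 (R 4.3.3, mean-variance trend), all groups of a table in 1 fit, on genes of at least 10 in as many libraries as the smallest group, with Benjamini-Hochberg adjustment over all genes at 0.05. Fold changes are on that scale and understate those of low genes. The fit was tested on simulated data. Exact two-sided permutation tests were run over samples in soleus and liver; 3 against 3 cannot go below 0.1. The labels number separate samples, so p-values measure the spread between them. The members and lists were chosen with earlier results of these data known. Genes named were the members, the 5 most like H19, called genes of each list (up to 4), and otherwise the most abundant of the list. Alternatives were other pseudocounts, no filter, 2 other scalings, the study's threshold (unadjusted p of 0.05 with a log2 fold change of 1), 2-group fits, a library series covariate, a replicate block and leaving out libraries. Marker sums add normalized values. Figures were drawn with matplotlib 3.10.9 in Python 3.11.15. Positions are from GENCODE release 21 for mouse.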

Additional observations from a re-analysis of the deposited data

Results flagged for a closer look

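In the groups of 5 (soleus and liver), 7 of 40 sets of values had a library whose gap to its neighbour exceeded Dixon's 95% limit of 0.71 of the group's range. The limit's rate of about 1 in 20 holds for independent normal values. These values were not on a log scale, some lay near 0 and some sets shared a library, so the 7 cannot be read as an excess. H19 was 68.3 in Liver STD replicate 5, beside at most 2.08 in the rest of its group, in the library that also held muscle markers. H19 was 23290 in Soleus HC replicate 5, beside at most 16422 in its group, and 21088 in Soleus STD replicate 1, beside at most 16142. Meg3 was 193 in Soleus HC replicate 5, beside at most 61.3. The other 3 sets were Dlk1, at values too low to read: 1.08 in Liver STD replicate 2 and 0.993 in Liver HC replicate 4 where the rest of each group was 0, and 0 in Soleus STD replicate 2 where the others had at least 0.851.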

How the results depend on the processing

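Of 237 alternative counts of called genes over 16 comparisons, 226 stayed within 1.5 times of the count they were set against. The main count was 0 in 15 of the 16 comparisons, so this agreement says little about robustness. Where it was not 0, between CTX-HC 30 DPI and CTX-HC 2 DPI, 8 of 14 alternatives stayed and 6 changed. These counts include H19, whose day 2 libraries chose it, and are a description. Of 687 alternatives of the 52 named fold changes, 0 reversed the sign. Without H19, 2 genes were called between CTX-HC 30 DPI and CTX-HC 2 DPI. This count became 3 with the study's threshold, 0 in the fit of only those 2 groups, and 0 to 2 when each library was left out in turn. It was 0 without CTX-HC 2 DPI replicate 1, 2 or 3 or CTX-HC 30 DPI replicate 1 or 2. Between CTX-HC 2 DPI and Control, 0 became 2 with the study's threshold, and Cdkn1c was called in the fit of those 2 groups. The study's threshold also gave 1 for siAcly SB against siAcly Ut and 1 for siAcly Ut against siC Ut, where the main count was 0. Quantile normalization moved H19 in CTX-HC 2 DPI to -1.40 against CTX 2 DPI and -0.55 against Control, and the cause was not tested. In liver and soleus the replicate block called 0 genes of the set; same-numbered libraries correlated at 0.0243 to 0.0833 in liver and -0.112 to 0.403 in soleus, with 2 of 5 and 1 of 5 closest to their own number, so the numbers did not pair them. Values carry no counts, so counting error could not be given.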
